A study of Mus musculus with 48 samples.

Results

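Cadherins are calcium-dependent adhesion proteins that span the cell membrane and bind a partner on the neighbouring cell, usually a copy of themselves. The 101 members described here are the gene rows, of 24421 in each deposited table, whose symbol names a cadherin (Cdh followed by a number), a protocadherin (Pcdh), a Celsr cadherin, which crosses the membrane several times, or a giant cadherin (Fat or Dachsous). Of these, 58 belong to the clustered protocadherins, with 14 alpha, 22 beta and 22 gamma genes, and 43 lie outside the clusters. The 43 comprise 5 type I cadherins, 13 type II cadherins, 5 other Cdh genes, 8 Celsr, Fat and Dachsous genes, 4 delta-1 protocadherins, 5 delta-2 protocadherins and 3 other protocadherins.

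Type I and type II cadherins hold cells together through catenins, which tie their cytoplasmic tails to actin, and the combination of type II cadherins a neural cell carries sorts it among its neighbours. Protocadherins outside the clusters adhere more weakly, and several of the delta-2 members recruit the WAVE actin-branching complex. In the clusters, each cell uses a small choice of the many first exons, so that neighbouring processes of 1 cell can recognise each other, and the gamma C genes are used more generally than the others. Celsr, Fat and Dachsous proteins carry planar cell polarity signals between cells. In the brain, astrocytes extend most of their fine processes during the first postnatal weeks, the period these samples cover.

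The libraries are bulk RNA-seq of mouse cells labelled astrocyte, prepared from dissociated tissue of the cortex, the hippocampus and the olfactory bulb (the bulb below), 48 libraries in 15 groups. Developmental groups were labelled P1, P7 and P14 (postnatal days 1, 7 and 14), with 3 libraries each except for 4 in cortex at P14, and their labels name no genotype, strain or treatment. At P28 each region had Gabbr1 control and Gabbr1 cKO (conditional knockout) libraries, with 4 of each kind from cortex, 2 controls and 4 knockouts from the hippocampus, and 3 of each from the bulb. Gabbr1 encodes a subunit of the GABAB receptor, through which the transmitter GABA signals to G proteins. Tamoxifen is given as the treatment, for controls and knockouts alike, of all hippocampal and olfactory bulb P28 libraries and of 3 of the 8 cortex P28 libraries, and the other 5 cortex labels name none. Those 3 are control replicates 3 and 4 and cKO replicate 4, so the tamoxifen label is unbalanced over the cortex genotypes. The same 3 are also the cortex libraries of a second deposit round, so the label and the round cannot be told apart. The labels name no Cre driver and do not say whether each library came from 1 animal or several, so the p-values below measure the spread between these libraries only. At P28 the library numbers in the labels run on from region to region within a genotype, so libraries of different regions may come from the same animals, and the 3 P28 comparisons may not be independent. The study asks how astrocyte development and the loss of the receptor shape these cells. The question followed here is which adhesion genes differed with age and with genotype.

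All values are normalised reads per gene: the read count divided by 1 factor per library, as deposited. Between 1773226 and 15008466 reads of a library fell in genes. The number of genes with a read was 15565 to 17187 at P1 and P7 in all regions, against 12301 to 13233 at P14 in hippocampus and olfactory bulb. In cortex at P14 it was 14316 to 15299. Sums over 10 astrocyte markers spanned 22781 to 29806 at P1 and 513217 to 572109 at P14 in cortex, 14190.4 to 16553 against 439677 to 474323 in the hippocampus and 5274 to 7452 against 131764 to 149152 in the bulb. Sums over 14 neuronal markers ran the other way, spanning 8227 to 11620.1 at P1 and 299 to 577 at P14 in cortex, 7558 to 9686 against 461 to 717 in the hippocampus and 16701 to 19693 against 2019 to 3188 in the bulb. The P1 libraries thus held reads of neuronal genes beside those of astrocytes, and 12, 11 and 11 of the 14 neuronal markers fell with age in cortex, hippocampus and olfactory bulb. In the hippocampus, sums over 7 ependymal and choroid plexus markers spanned 44.1 to 83.3 at P1 and 4047 to 8474 at P14, with 3 of 4 tested markers higher, and their part in the age differences was not tested. In bulk samples, fewer cells of a type and less RNA per cell cannot be told apart, which touches every age difference below. At P28, 1 hippocampal cKO library (replicate 2) and 1 olfactory bulb control library (replicate 2) stood apart: the ribosomal RNA gene Rn45s took 0.594% and 0.476% of their reads, against 27.0% to 38.0% in the other P28 libraries.

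Development was tested in each region from P1 to P14 with limma on log2(value + 1), among genes whose mean over the table was at least 10, with Benjamini-Hochberg adjustment over all genes and a threshold of 0.05. In cortex 45 of 67 tested members passed, 15 higher and 30 lower at P14. Of all genes tested there, 64.4% passed, 24% higher and 40.3% lower, so the members' share was close to the background. In the hippocampus 35 of 65 members passed, 12 higher and 23 lower, against 49.5% of all genes, 21% higher and 28.5% lower. In the bulb 36 of 69 passed, 16 higher and 20 lower, against 56.1%, 24.8% higher and 31.4% lower. As a whole the members thus passed about as often as other genes. Below, where library values are joined by "against", P1 stands first and P14 second, or at P28 the controls first and cKO libraries second. The median member differed by -0.47, -0.77 and -0.23 on the log2 scale in cortex, hippocampus and olfactory bulb. The median gene differed by -0.27, -0.29 and -0.24, and a member's distance from the median gene is its difference less that value. Outside the clusters the median was -0.75, -0.61 and 0.32, with 10 of 32, 10 of 30 and 13 of 33 tested members higher and 18, 15 and 11 lower. Within the clusters it was -0.18, -0.79 and -0.34, with 5 of 35, 2 of 35 and 3 of 36 higher and 12, 8 and 9 lower. Under TMM scaling the median gene of the cortex stood at 0.00, and cortex members then split into 18 higher and 27 lower, with 3801 higher and 3655 lower over all genes in place of 2843 and 4765. With edgeR the median gene stood at -0.04, -0.08 and -0.05 in the 3 regions.

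Of the members, 29 were too low to test in any developmental table, 20 of them clustered genes and 11 of those alpha genes. Pcdha4, Pcdha6 and Pcdha7 had 0 reads in all 48 libraries. A member could pass the filter through 1 high age alone, so counts over tested members do not describe all members. In all 3 regions 20 members passed. Higher at P14 in each were Cdh20, Fat1, Pcdh7, Pcdh10, Pcdh17, Pcdhgc3 and Pcdhgc5, and lower in each were Cdh8, Cdh12, Cdh24, Celsr1, Celsr3, Dchs1, Pcdh8, Pcdhac2 and Pcdhb16. The other 4, Cdh13, Pcdh11x, Pcdh19 and Celsr2, passed with opposite signs in different regions.

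**Figure D1:**
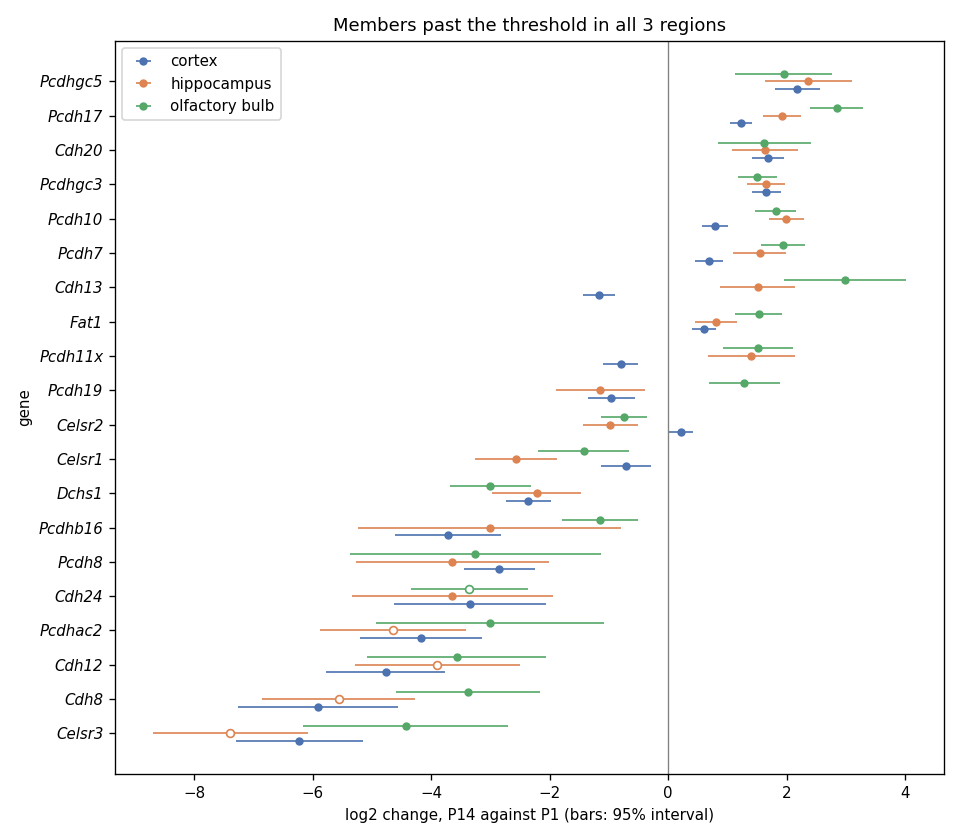
Log2 difference between P14 and P1 (horizontal axis) for the 20 members that passed in all 3 regions, 1 row per gene and 1 point per region, with 95% intervals as bars. Open points mark members with at most 3 reads in every P14 library of that region, whose place is set by the 1 added before the log, among them Cdh12 and Pcdhac2 at 0 reads in the hippocampus. Celsr3, Cdh8, Cdh12 and Pcdhac2 lie on the lower side in all regions, Pcdhgc3, Pcdhgc5 and Cdh20 lie at 1.51 or above, and Cdh13 lies below 0 in cortex and above 0 in the other regions.

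The promoters of Cdh20, Pcdh10, Celsr3 and Pcdh8 are printed as examples of members that rose (the first pair) or fell (the second pair) in all regions. Each run below is the 250 bases before the annotated start, outside the transcript, from RefSeq on GRCm38.p6, 5′ to 3′ on the gene's strand. Capitals mark TTGGC or its reverse complement GCCAA, an arm of the palindrome that nuclear factor I proteins, regulators of astrocyte formation, bind. The spellings were searched on both strands and may overlap each other. Cdh20 lies at chr1:104768270-104768519 on the plus strand, Pcdh10 at chr3:45378148-45378397 on the plus strand, Celsr3 at chr9:108825795-108826044 on the plus strand and Pcdh8 at chr14:79771313-79771562 on the minus strand.
Cdh20: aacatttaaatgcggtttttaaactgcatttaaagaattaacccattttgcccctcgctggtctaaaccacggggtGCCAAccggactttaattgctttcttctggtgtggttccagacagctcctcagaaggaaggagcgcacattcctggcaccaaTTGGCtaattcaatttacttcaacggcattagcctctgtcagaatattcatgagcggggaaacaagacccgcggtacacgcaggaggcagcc
Pcdh10: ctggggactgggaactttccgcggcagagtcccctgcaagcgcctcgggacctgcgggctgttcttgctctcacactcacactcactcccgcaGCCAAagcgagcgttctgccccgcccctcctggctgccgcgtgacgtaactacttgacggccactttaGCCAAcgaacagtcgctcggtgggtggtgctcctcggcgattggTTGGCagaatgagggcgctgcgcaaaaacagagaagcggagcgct
Celsr3: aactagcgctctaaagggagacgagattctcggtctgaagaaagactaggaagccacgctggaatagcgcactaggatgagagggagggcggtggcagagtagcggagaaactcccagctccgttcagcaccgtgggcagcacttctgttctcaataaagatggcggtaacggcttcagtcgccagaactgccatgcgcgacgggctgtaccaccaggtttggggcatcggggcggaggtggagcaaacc
Pcdh8: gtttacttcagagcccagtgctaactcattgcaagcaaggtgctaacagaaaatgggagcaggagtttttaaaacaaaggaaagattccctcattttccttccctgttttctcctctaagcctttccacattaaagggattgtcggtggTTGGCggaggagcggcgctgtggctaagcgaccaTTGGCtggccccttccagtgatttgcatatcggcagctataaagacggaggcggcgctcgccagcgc
The letters occur 2 times before Cdh20, 3 times before Pcdh10, 0 times before Celsr3 and 2 times before Pcdh8, so matches are present upstream of a gene that fell as well as upstream of genes that rose. Other members with a window that rose in all regions held 0 (Fat1), 0 (Pcdh7) and 1 (Pcdh17). Others that fell in all regions held 0 (Cdh8), 0 (Cdh24) and 1 (Cdh12). Matches are common: 41.5% of all 32851 promoter windows of this length hold a match, and 17 of 31 windows of the 28 members outside the clusters that have one do (54.8%). CpG pairs number 10, 22, 17 and 11 in the 4 windows, in the same order, against a median of 6 over all windows. A match describes the letters only.

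Among type I cadherins, which form the classical adherens junction, 2 of 5 were high enough to test. Cdh2, N-cadherin, is the main classical cadherin of neural tissue. In cortex it measured 1584, 1691 and 1629.6 at P1, 1667, 1653 and 1636 at P7 and 1514, 1355, 1512 and 1615 at P14. Its difference of -0.13 ± 0.08 SE, adjusted p = 0.166, did not pass and took the opposite sign under TMM scaling (0.15), so no direction is given for cortex. Hippocampal values were 2229, 2641 and 1963 at P1, 1356, 1539.6 and 1520.5 at P7 and 1746, 1498 and 1731 at P14. Every P14 library lay below every P1 library, a log2 difference of -0.45 ± 0.13 SE, adjusted p = 0.0128. In the bulb Cdh2 measured 1979, 2214 and 2177 at P1, 1519.6, 1623 and 1544 at P7 and 2614, 2644 and 2777 at P14, and the oldest libraries were the highest (0.34 ± 0.10 SE, adjusted p = 0.0139). That call was lost under quantile normalization, which turned the sign (-0.13), and without P1 replicate 1 (0.29, adjusted p = 0.0715). Cdh4, R-cadherin, known from retina and developing brain, fell by 2.29 in cortex and by 1.51 in the hippocampus on the log2 scale, and its olfactory bulb difference of -0.44 did not pass.

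Per kilobase of annotated exon, the scale on which genes can be compared, Cdh2 had the highest mean among members outside the clusters at P1, P7 and P14 in every region. At P14 it stood at 186 ± 13.3 normalised reads per kilobase in cortex, 206 ± 17.2 in the hippocampus and 332 ± 10.8 in the bulb (mean ± SD, n = 4, 3 and 3). Pcdh10 came next at P14 in each region, at 152 ± 10.5, 173 ± 19.8 and 192 ± 23.2, and then Fat1, at 144 ± 15.9, 151 ± 29.8 and 146 ± 16.4. In cortex and hippocampus the means of Pcdh10 and Fat1 differed by less than the sum of their SDs, so their order there is not resolved. The same holds for Cdh2 and Pcdh10 in the hippocampus at P14. At P1 the mean after that of Cdh2 was that of Pcdh9 in cortex (105 ± 13.3, with Fat1 at 93.7 ± 5.91) and in the bulb (118 ± 11.4, with Cdh4 at 113 ± 20.2) and that of Fat1 in the hippocampus (86.0 ± 15.9, with Cdh4 at 67.7 ± 9.43), and by the same measure none of these places is resolved.

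Type II cadherins included members that fell to a few reads by P14 and members that rose. In cortex 11 of 13 were tested, with 3 higher and 6 lower, in the hippocampus 9 with 2 higher and 4 lower, and in the bulb 12 with 4 higher and 6 lower. Among all genes 24%, 21% and 24.8% were higher in the 3 regions and 40.3%, 28.5% and 31.4% lower. Cdh8, Cdh12 and Cdh24 fell in every region. Cdh8, which marks sets of neurons that connect with each other, measured 200.3, 161 and 122 at P1 and 5.30, 0.629, 3.78 and 0 at P14 in cortex, a log2 difference of -5.91 ± 0.62 SE, adjusted p = 2.2e-06. Hippocampal values went from 72.7, 68.2 and 88.5 to 1.07, 1.10 and 0 and bulb values from 43.4, 65.6 and 74.5 to 5.96, 1.38 and 11.1. Cortex P7 libraries lay between, at 65.8, 20.9 and 97.0. No P14 library reached a P1 level of its region.

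Cdh12, also called brain cadherin, measured 167, 125 and 89.8 at P1 and 4.54, 1.89, 3.78 and 4.67 at P14 in cortex (-4.77 ± 0.47 SE, adjusted p = 1.0e-06). In the hippocampus it was highest at P7, at 16.3, 33.2 and 41.6, after 13.2, 8.02 and 24.6 at P1, and had 0 reads in all 3 P14 libraries. Against a floor of 3 reads per library that is at least 2.84-fold lower than at P1. In the bulb it went from 42.3, 42.3 and 40.3 at P1 through 95.9, 131 and 62.3 at P7 to 3.98, 0 and 8.33 at P14, so P14 was again the low age. Cdh24 fell from 25.9, 23.4 and 27.7 to 4.16, 0, 5.05 and 0.519 in cortex, from 19.9, 11.6 and 39.3 to 0, 4.41 and 0 in the hippocampus and from 25.5, 18.5 and 34.2 to 1.99, 1.38 and 1.39 in the bulb. Of the others, Cdh18 fell by 3.47, Cdh9 by 3.24 and Cdh6 by 2.07 in cortex and Cdh22 by 3.38 in the bulb, all on the log2 scale. In the bulb Cdh18 and Cdh7 also fell, to at most 3 reads and 1 read in a P14 library. The neuronal marker sums given above fell over the same libraries, and their part in these differences was not tested.

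Cdh20 was the type II cadherin that rose throughout. In cortex it measured 130.1, 134 and 128 at P1, 191, 234 and 270.1 at P7 and 384, 445, 398 and 471 at P14, with no overlap between ages and a log2 difference of 1.69 ± 0.13 SE, adjusted p = 8.4e-08. Hippocampal values were 120.02, 131 and 114, then 196, 251 and 207, then 520.2, 429 and 244, and the difference was 1.63 ± 0.25 SE, adjusted p = 2.5e-04. Olfactory bulb values were 67.8, 53.3 and 52.9, then 219, 185 and 89.6, then 266, 179 and 122, with all P14 libraries above all P1 libraries (1.63 ± 0.36 SE, adjusted p = 0.00258). Cdh10, another type II cadherin of the brain, rose in cortex, from 192, 181 and 158 at P1 to 274, 299, 266 and 296 at P14 (0.68 ± 0.12 SE, adjusted p = 2.3e-04), with the P7 libraries already at 298, 292 and 381. In the hippocampus Cdh10 was 285, 308 and 305 at P1 and 303, 394 and 211 at P14, where the ages overlapped and the difference (-0.03) turned to 0.09 under edgeR. In the bulb it was 143, 156 and 171 at P1 and 300.1, 182 and 340.1 at P14, which missed the threshold with limma (0.76 ± 0.32 SE, adjusted p = 0.0612) and passed with edgeR (0.88, adjusted p = 0.0266).

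Cdh19, a type II cadherin of Schwann cells and other glia, measured 2.84, 4.53 and 9.24 at P1, 19.6, 12.4 and 14.5 at P7 and 134, 103, 98.4 and 96.6 at P14 in cortex, a rise of 4.16 ± 0.33 SE, adjusted p = 1.5e-07. In the bulb it measured 15.8, 27.7 and 27.6, then 41.8, 81.5 and 46.3, then 364, 249 and 365 (3.75 ± 0.33 SE, adjusted p = 4.2e-06). Hippocampal libraries stayed low and uneven, at 10.7, 0.891 and 8.60 at P1 and 5.37, 41.9 and 17.9 at P14, and the difference of 1.54 ± 0.86 SE, adjusted p = 0.159, did not pass. It passed there under quantile normalization (2.47) and without P14 replicate 1 (2.26). Sums over 4 olfactory ensheathing cell markers spanned 19.3 to 63.5 at P1 and 124 to 303 at P14 in the bulb, where 4 of 4 rose, and 101 to 143 against 28.9 to 60.2 in cortex. Sums over 8 oligodendrocyte markers spanned 339.8 to 399 at P1 and 15334 to 26218 at P14 in cortex, with 6 of 7 tested markers higher, and 99.3 to 189 against 1969 to 2262 in the bulb, with 5 of 5 higher and Mag and Opalin at 0 at both ages. In the hippocampus, where Cdh19 did not pass, they spanned 76.2 to 92.2 and 1614 to 2332, with 4 of 4 tested markers higher, and the ensheathing sums 17.2 to 42.7 and 13.97 to 65.1. Their part in the Cdh19 difference was not tested. Cdh11, an osteoblast and neural cadherin, rose by 1.48 in the hippocampus and 1.51 in the bulb and differed by 0.04 in cortex, where it did not pass.

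Cdh5 is the cadherin of endothelial junctions, and its values are given with those of vessel markers. In the bulb Cdh5 measured 14.7, 7.93 and 4.41 at P1 and 13.9, 85.5 and 149 at P14 (2.66 ± 0.74 SE, adjusted p = 0.0101), with P14 replicate 1 inside the P1 range. There the sum over 8 endothelial markers spanned 14.97 to 24.8 at P1 and 290.2 to 1352 at P14, 7 of 7 tested markers rose, and 3 of 3 tested mural markers rose. In the hippocampus Cdh5 measured 29.2, 12.9 and 4.92 at P1, 99.6, 48.2 and 53.9 at P7 and 0, 12.1 and 0 at P14 (-2.52 ± 0.97 SE, adjusted p = 0.049), a call that was lost in 10 alternative settings. Hippocampal endothelial sums were 43.0 to 98.6 at P1 and 8.96 to 123 at P14, with Cldn5, Esam and Egfl7 at 0 in all P14 libraries. In cortex Cdh5 ranged over 6.53, 49.1 and 91.6 at P1 and 22.3, 5.66, 86.1 and 24.9 at P14, spreads that cover each other (-0.43 ± 0.81 SE, adjusted p = 0.664), and the sign turned without P1 replicate 3 (0.32). The part of vessel cells in these values was not tested.

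Cdh13, T-cadherin, is anchored to the membrane by a lipid and has no tail to bind catenins. It moved in opposite directions in different regions. In cortex it measured 166, 179.8 and 163 at P1, 244, 204 and 223 at P7 and 68.1, 76.1, 74.7 and 83.1 at P14, a fall from P1 to P14 of -1.16 ± 0.13 SE, adjusted p = 2.8e-06. In the hippocampus it measured 54.8, 52.1 and 33.8, then 153, 165 and 283, then 145, 131 and 124, a rise of 1.51 ± 0.29 SE, adjusted p = 0.00108. Bulb values were 5.38, 6.16 and 3.86, then 32.6, 37.2 and 16.02, then 69.6, 28.9 and 51.4, a rise of 2.99 ± 0.47 SE, adjusted p = 2.8e-04. Values at P1 and P14 did not overlap in any region, and in cortex and hippocampus the highest values were at P7.

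**Figure D2:**
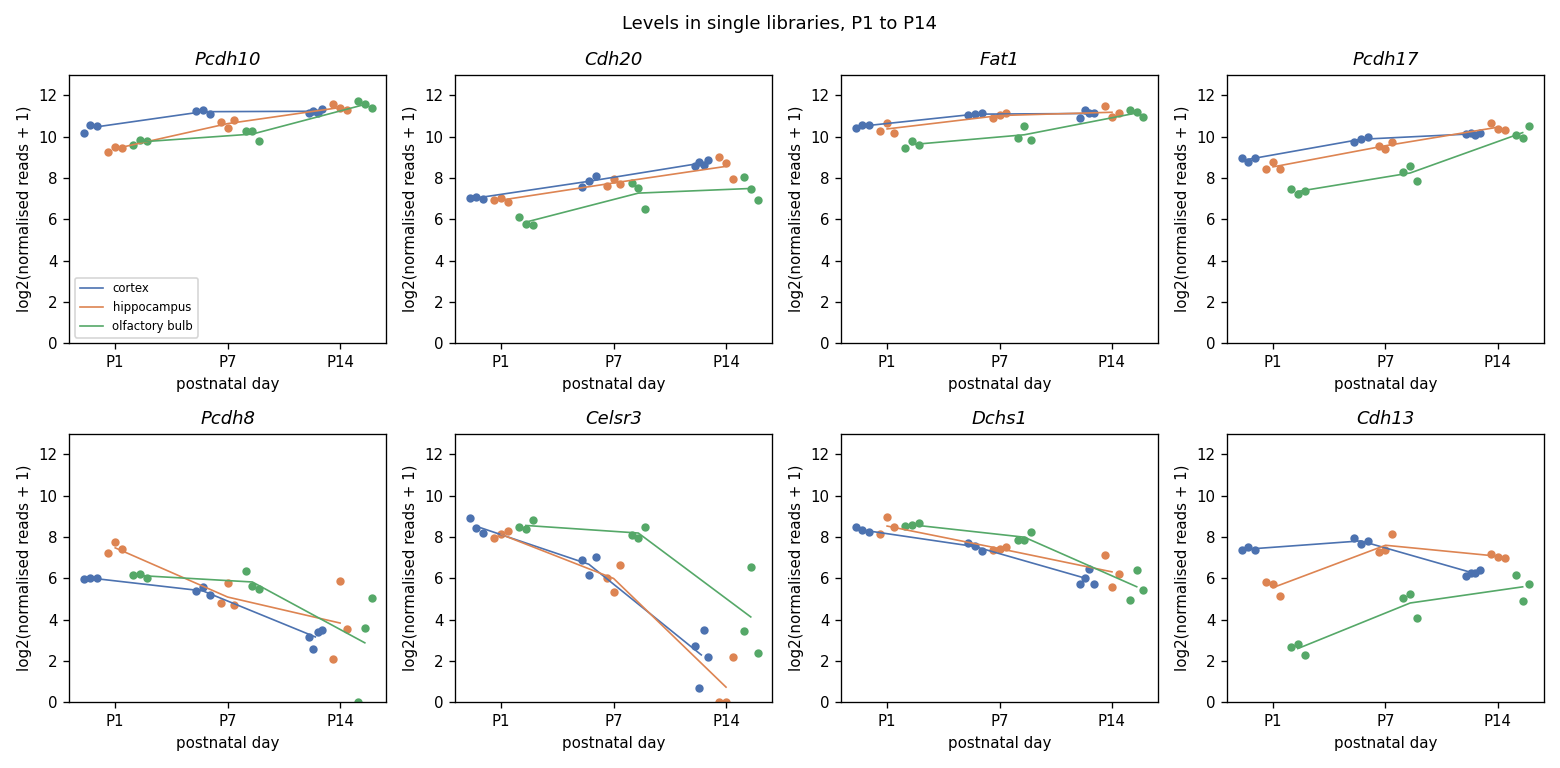
Levels of Pcdh10, Cdh20, Fat1, Pcdh17, Pcdh8, Celsr3, Dchs1 and Cdh13 as log2(normalised reads + 1) on the vertical axis, 1 panel per gene and 1 point per library, at P1, P7 and P14 in the 3 regions, with lines joining the means. The first 4 genes are higher at P14 than at P1 in every library, Pcdh8, Celsr3 and Dchs1 are lower, and Cdh13 is lower in cortex and higher in the other regions.

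The Celsr, Fat and Dachsous genes mostly fell, with Fat1 the exception in all regions. Of 8, 7 were tested: in cortex 2 rose and 5 fell, in the hippocampus 1 rose and 5 fell, and in the bulb 1 rose and 4 fell. Of all genes 24%, 21% and 24.8% rose and 40.3%, 28.5% and 31.4% fell. Celsr3, a planar polarity cadherin needed for axon guidance, fell in every region. In cortex it went from 486, 342 and 291 at P1 through 117, 69.6 and 128 at P7 to 5.67, 0.629, 10.4 and 3.63 at P14 (-6.22 ± 0.50 SE, adjusted p = 1.5e-07). Hippocampal values went from 246, 279 and 310.3 through 64.6, 38.8 and 97.5 to 0, 0 and 3.58 (-7.39 ± 0.60 SE, adjusted p = 1.5e-06), a size that depends on the pseudocount since no P14 library held more than 2 reads. Olfactory bulb values went from 359.6, 330.2 and 445 through 275, 248 and 360.1 to 9.94, 93.7 and 4.17 (-4.43 ± 0.79 SE, adjusted p = 6.6e-04), where P14 replicate 2 kept far more than the other two. Even that library lay below every P1 and P7 library.

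Dchs1 is the Dachsous ligand that binds Fat4. It went from 351, 317 and 298 to 51.5, 64.1, 85.8 and 51.9 in cortex (-2.36 ± 0.18 SE, adjusted p = 8.7e-08), from 283, 498 and 353 to 141, 46.3 and 73.5 in the hippocampus (-2.22 ± 0.34 SE, adjusted p = 2.6e-04) and from 362, 387 and 403 to 29.8, 84.1 and 41.7 in the bulb (-2.998 ± 0.31 SE, adjusted p = 1.5e-05). Its receptor Fat4 fell with it by 1.76 in cortex and by 1.64 in the hippocampus on the log2 scale, while the olfactory bulb difference of 0.35 did not pass. Celsr1, a core planar polarity cadherin, was 378, 611 and 335 at P1 and 74.2, 44.1 and 109 at P14 in the hippocampus (-2.57 ± 0.32 SE, adjusted p = 4.5e-05), and 82.1, 156 and 128 against 57.6, 53.8 and 26.4 in the bulb (-1.42 ± 0.35 SE, adjusted p = 0.00504). In cortex it was 117, 137 and 136 against 62.0, 104, 74.1 and 82.5 (-0.71 ± 0.19 SE, adjusted p = 0.00572), a call lost under TMM scaling (-0.43, adjusted p = 0.0668). Celsr2, its close relative, fell in the hippocampus from 422, 632 and 438 to 205, 223 and 335 (-0.97 ± 0.21 SE, adjusted p = 0.00276) and in the bulb from 294, 269 and 303 to 203, 179 and 140.2 (-0.74 ± 0.17 SE, adjusted p = 0.00398). Its cortex values of 491, 461 and 423 at P1 and 549, 494, 539 and 548 at P14 passed narrowly as higher (0.22), a call lost in 11 alternative settings.

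Fat1, a giant cadherin that organises actin at cell edges, rose in every region. Cortex values were 1361, 1533 and 1505 at P1, 2119, 2171 and 2272 at P7 and 1929.8, 2534, 2239 and 2286 at P14 (0.61 ± 0.09 SE, adjusted p = 6.5e-05). Hippocampal values were 1257, 1629 and 1155, then 1918, 2099.5 and 2260.4, then 2872, 1956 and 2256 (0.81 ± 0.16 SE, adjusted p = 0.00161), a call lost under quantile normalization (0.31, adjusted p = 0.0645). Olfactory bulb values were 702, 900.5 and 774, then 993, 1449 and 912, then 2495, 2364 and 1998 (1.53 ± 0.18 SE, adjusted p = 3.4e-05). In each region all P14 libraries lay above all P1 libraries. Fat3, which shapes neuronal dendrites, fell by 0.66 in cortex on the log2 scale and differed by 0.11 and 0.05 elsewhere without passing.

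Delta-1 protocadherins, which have a longer tail than the delta-2 group, rose in 4 of 4 cases in the hippocampus, in 2 of 4 in cortex, where 1 fell, and in 2 of 4 in the bulb. The shares of all genes that rose were 21%, 24% and 24.8%, and 40.3% fell in cortex. Pcdh7 rose in all regions. It measured 515, 536 and 518 at P1 and 789, 979, 851 and 779.8 at P14 in cortex (0.69 ± 0.11 SE, adjusted p = 1.0e-04), 313, 364 and 288 against 999, 692 and 1195 in the hippocampus (1.55 ± 0.21 SE, adjusted p = 7.6e-05) and 392, 334 and 326 against 1622, 1105 and 1374 in the bulb (1.95 ± 0.17 SE, adjusted p = 4.0e-06). P1 and P14 did not overlap in any region. Pcdh1 rose in the hippocampus, from 26.7, 45.0 and 30.1 to 179, 115 and 82.4 (1.82 ± 0.32 SE, adjusted p = 6.1e-04), and in cortex, from 110.0, 114 and 131 to 201, 189, 207 and 177 (0.71 ± 0.12 SE, adjusted p = 2.0e-04), and in the bulb it was 148, 133 and 118 and then 113, 198 and 203, overlapping values (0.32 ± 0.25 SE, adjusted p = 0.292). Pcdh9 rose in the hippocampus alone among the tests, from 218, 293 and 249 to 864, 629.6 and 695 (1.52 ± 0.19 SE, adjusted p = 4.6e-05). In cortex Pcdh9 measured 721, 795 and 616 at P1 and 691, 642, 519 and 598 at P14, and in the bulb 719, 818 and 871 against 726, 817 and 578. Neither difference passed.

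Pcdh11x, an X-linked delta-1 member, peaked at P7 in cortex, at 392, 332 and 467, between 134, 161 and 155 at P1 and 87.4, 84.3, 93.0 and 78.4 at P14. From P1 to P14 that was a fall of -0.80 ± 0.14 SE, adjusted p = 1.9e-04. In the hippocampus it rose from 47.0, 47.7 and 50.4 at P1 to 120.38, 77.2 and 233 at P14 (1.40 ± 0.33 SE, adjusted p = 0.00454) and in the bulb from 97.9, 78.4 and 67.3 to 298, 244 and 174 (1.53 ± 0.27 SE, adjusted p = 6.2e-04). The Y-linked gene Ddx3y had a level of at least 10 in 2 of the 4 cortex P14 libraries and in none of the cortex P1 and P7 libraries. Without those libraries the cortex difference of Pcdh11x was -0.79 (adjusted p = 0.00175).

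The delta-2 protocadherins moved in opposite directions within 1 subfamily. In cortex and in the hippocampus 2 rose and 3 fell, and in the bulb 3 rose and 1 fell. Over all genes 24%, 21% and 24.8% rose and 40.3%, 28.5% and 31.4% fell in these regions. Pcdh10, a delta-2 protocadherin that brings the WAVE complex to cell contacts, measured 1168, 1542 and 1481 at P1, 2436, 2512 and 2191 at P7 and 2297, 2451, 2278 and 2638 at P14 in cortex (0.80 ± 0.10 SE, adjusted p = 1.4e-05). Hippocampal values were 622, 732 and 708, then 1655, 1366 and 1790.1, then 3097, 2654 and 2487 (1.99 ± 0.14 SE, adjusted p = 3.7e-07). Olfactory bulb values were 786, 923 and 877, then 1263, 1243 and 898, then 3415, 3035 and 2678 (1.81 ± 0.15 SE, adjusted p = 3.5e-06). In cortex the P7 and P14 values overlapped, while in the other regions every P14 library lay above every P7 library. Pcdh17, which acts with the same complex, went from 495, 442 and 506 to 1139, 1152, 1071 and 1165 in cortex (1.23 ± 0.09 SE, adjusted p = 5.3e-08), from 344, 437 and 344 to 1617, 1336 and 1304 in the hippocampus (1.92 ± 0.15 SE, adjusted p = 9.0e-07) and from 175, 151 and 163 to 1101, 992 and 1491 in the bulb (2.85 ± 0.21 SE, adjusted p = 1.1e-06). Among the 3 protocadherins outside the clusters that rose in all regions, Pcdh17 had the largest difference in cortex and olfactory bulb, and in the hippocampus it and Pcdh10 differed by less than their SEs.

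Pcdh8, known for its activity-dependent role at neuronal contacts, fell everywhere. It went from 62.2, 64.5 and 63.9 to 7.94, 5.03, 9.46 and 10.4 in cortex (-2.85 ± 0.28 SE, adjusted p = 9.6e-07), from 148, 217 and 171 to 3.22, 57.3 and 10.7 in the hippocampus (-3.64 ± 0.75 SE, adjusted p = 0.00176) and from 70.6, 72.2 and 64.5 to 0, 11.03 and 31.9 in the bulb (-3.25 ± 0.96 SE, adjusted p = 0.0138). P1 and P14 did not overlap, although the P14 libraries of hippocampus and olfactory bulb varied widely. Pcdh18 fell in cortex, from 93.8, 86.9 and 106 to 21.6, 11.9, 48.9 and 42.6 (-1.77 ± 0.37 SE, adjusted p = 7.8e-04), and in the hippocampus, from 152, 154 and 89.1 to 9.67, 34.2 and 17.9 (-2.74 ± 0.42 SE, adjusted p = 2.4e-04). Bulb values of Pcdh18 were 39.8, 61.2 and 53.5 against 37.8, 113 and 76.4 (0.44 ± 0.37 SE, adjusted p = 0.331). Pcdh19, the X-linked gene of an epilepsy that affects mostly females, fell from 232, 256 and 337 to 121, 147, 142 and 150.0 in cortex (-0.95 ± 0.19 SE, adjusted p = 5.2e-04) and from 224, 344 and 215 to 80.6, 209 and 89.6 in the hippocampus (-1.14 ± 0.34 SE, adjusted p = 0.0162). The hippocampal call was lost without P1 replicate 2, P14 replicate 1 or P14 replicate 3 (adjusted p 0.0565 to 0.0753), and the cortex difference was -1.02 (adjusted p = 0.00404) without the 2 P14 libraries that hold Ddx3y reads. In the bulb Pcdh19 rose from 111, 129 and 144 to 296, 303 and 340.1 (1.29 ± 0.27 SE, adjusted p = 0.00202).

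Of the 3 other protocadherins, Pcdh15, the tip-link protein of hair cells that oligodendrocyte precursors also express, measured 152, 149 and 117 at P1, 153, 165 and 243 at P7 and 20.1, 39.6, 51.4 and 33.7 at P14 in cortex (-1.98 ± 0.27 SE, adjusted p = 2.2e-05). Hippocampal libraries measured 33.8, 41.4 and 56.5, then 151, 116 and 125, then 5.37, 5.51 and 0 (-3.67 ± 0.66 SE, adjusted p = 7.0e-04), and bulb libraries 64.5, 37.9 and 53.5, then 242, 258 and 154, then 23.9, 48.2 and 11.1 (-1.08 ± 0.45 SE, adjusted p = 0.0639). Mean values were highest at P7 in each region. Sums over 6 oligodendrocyte precursor markers were 1193 to 1281 at P1, 1622 to 2243 at P7 and 1039 to 1185 at P14 in cortex. They were 364 to 569, then 1155 to 1572, then 927 to 1035 in the hippocampus and 131 to 156, then 510.2 to 1082, then 1159 to 1210.5 in the bulb. The sums were thus highest at P7 in cortex and hippocampus and at P14 in the bulb, and their part was not tested. Pcdh20 rose in cortex, from 31.8, 33.5 and 27.5 to 134, 189, 81.0 and 116 (1.98 ± 0.24 SE, adjusted p = 8.8e-06), and in the bulb, from 20.4, 24.7 and 31.4 to 169, 64.8 and 162 (2.23 ± 0.41 SE, adjusted p = 7.9e-04). Its hippocampal values of 52.0, 61.5 and 69.4 against 12.9, 30.9 and 106 overlapped and did not pass.

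In the protocadherin clusters, alpha genes were close to 0 at P14 while Pcdhgc3 and Pcdhgc5 of the gamma cluster rose. Their values carry a caution: in GENCODE M21, a median of 53.5% of the exonic length of alpha genes and 44.7% of that of gamma genes is shared with other genes of the same cluster, against 0% for beta genes. How reads in shared exons were assigned is not given in the sources used here, so single alpha and gamma values are uncertain. Summed over its 14 genes, the alpha cluster measured 315, 222 and 186 normalised reads at P1 in cortex, 107, 51.8 and 156 at P7 and 4.54, 6.29, 7.57 and 4.15 at P14. In the hippocampus it measured 68.0, 85.5 and 90.3 at P1, 54.9, 55.7 and 97.5 at P7 and 0 in all 3 P14 libraries. In the bulb it measured 147, 138 and 140.1, then 189, 178 and 175, then 9.94, 11.03 and 25.0. The alpha cluster was thus near its floor at P14 in each region. Reads were found for 10 or 11 alpha genes in each P1 library and for 1 to 7 in cortex, 0 in the hippocampus and 2 or 3 in the bulb at P14. The P14 libraries of all regions, and most of all those of hippocampus and olfactory bulb, also had low numbers of genes with a read, as given above.

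All tested alpha genes fell, 3 of 3 in cortex and olfactory bulb and 1 of 1 in the hippocampus. With alpha sums near the floor at P14, an alpha gene could pass the filter only through its younger libraries. These counts were thus largely set by the filter and carry little information on direction. They do not cover the 11 alpha genes that were too low to test in any region. Pcdhac2, the alpha gene used more generally than its neighbours, measured 83.2, 59.7 and 50.8 at P1 and 0.378, 6.29, 2.52 and 3.63 at P14 in cortex (-4.17 ± 0.48 SE, adjusted p = 4.9e-06). In the hippocampus it went from 27.1, 24.5 and 20.9 to 0 reads in all 3 libraries, at least 4.49-fold lower against a floor of 3 reads per library. In the bulb it went from 42.7, 40.1 and 44.7 to 0, 5.51 and 23.6 (-2.999 ± 0.87 SE, adjusted p = 0.0127), with P14 replicate 3 closest to the P1 level. Pcdha5 and Pcdha11 fell by 4.92 and 4.46 in cortex on the log2 scale. In the bulb Pcdha5 went to 0 reads in all 3 P14 libraries, at least 4.57-fold lower, and Pcdha11 fell to at most 3 reads in a library.

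Beta genes fell or did not pass. The beta sum went from 436 ± 69.2 at P1 to 119 ± 25.7 at P14 in cortex (SD, n = 3 and 4), from 373 ± 54.2 to 263 ± 40.7 in the hippocampus and from 339.8 ± 67.9 through 607 ± 104 at P7 to 232 ± 34.3 in the bulb (SD, n = 3). Of 10, 12 and 11 tested beta genes, 7, 2 and 4 fell and 0 rose, where 40.3%, 28.5% and 31.4% of all genes fell. Outside cortex the beta counts were thus close to or below those shares. Pcdhb16 fell in all regions, from 72.7, 80.1 and 63.9 to 8.32, 2.52, 2.52 and 7.27 in cortex (-3.71 ± 0.41 SE, adjusted p = 3.7e-06), from 57.7, 66.8 and 65.7 to 41.9, 0 and 10.7 in the hippocampus (-3.01 ± 1.01 SE, adjusted p = 0.0273) and from 85.3, 52.4 and 77.2 to 35.8, 31.7 and 26.4 in the bulb (-1.15 ± 0.29 SE, adjusted p = 0.00592). The hippocampal call was lost in 7 alternative settings, edgeR among them (-1.74, adjusted p = 0.0797). Pcdhb13 measured 10.8, 8.37 and 7.17 at P1 in the bulb and had 0 reads in all 3 P14 libraries, at least 1.47-fold lower against the same floor. It could reach the filter's table mean of 10 only with its P7 libraries.

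All 22 gamma genes were tested in each region. Among the 19 A and B genes, 3 rose and 1 fell in cortex, 0 rose and 5 fell in the hippocampus, and 1 rose and 1 fell in the bulb. The shares of all genes were 24%, 21% and 24.8% higher and 40.3%, 28.5% and 31.4% lower. The sum of the A and B genes was 851 ± 38.6 at P1 and 978 ± 64.2 at P14 in cortex, 1090.2 ± 66.5 and 760.4 ± 122 in the hippocampus and 767 ± 30.4 and 780.0 ± 117 in the bulb. Pcdhga7 rose in cortex, from 47.2, 32.5 and 32.3 to 54.9, 101, 78.5 and 68.0 (0.99 ± 0.22 SE, adjusted p = 0.00134), and fell in the hippocampus, from 41.3, 48.1 and 70.7 to 31.2, 17.6 and 12.5 (-1.40 ± 0.42 SE, adjusted p = 0.0169).

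Pcdhgc3 rose in every region. In cortex it measured 563, 528 and 536 at P1, 854, 1171 and 788 at P7 and 1701, 1718, 1702 and 1714 at P14 (1.65 ± 0.11 SE, adjusted p = 3.5e-08). Hippocampal levels were 405, 552 and 379, then 793, 833 and 849.6, then 1421, 1316 and 1421 (1.65 ± 0.15 SE, adjusted p = 2.8e-06). Bulb libraries measured 259.5, 258 and 283, then 348, 396 and 305, then 857, 776 and 664 (1.51 ± 0.15 SE, adjusted p = 1.1e-05). The 3 ages did not overlap in any region. Its share of all gamma reads went from 36.7 ± 1.52% at P1 to 59.6 ± 1.36% at P14 in cortex, from 27.8 ± 4.73% to 60.8 ± 1.84% in the hippocampus and from 24.4 ± 0.542% to 46.9 ± 5.48% in the bulb (mean ± SD over libraries). A share of this kind shows unequal change within the cluster. Gamma genes as a whole went from 68.8 ± 3.61% to 95.8 ± 0.908% of clustered reads in cortex, from 78.0 ± 1.68% to 89.7 ± 1.26% in the hippocampus and from 69.5 ± 3.60% to 86.8 ± 1.66% in the bulb.

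The other gamma C genes went separate ways. Pcdhgc5, known to appear late in brain development, rose from 34.4, 39.3 and 29.0 to 146, 146, 195 and 149 in cortex (2.18 ± 0.18 SE, adjusted p = 1.8e-07), from 22.8, 15.1 and 27.0 to 149, 107 and 89.6 in the hippocampus (2.36 ± 0.33 SE, adjusted p = 1.3e-04) and from 14.3, 17.6 and 18.2 to 71.6, 92.4 and 45.8 in the bulb (1.95 ± 0.37 SE, adjusted p = 0.00108). Its P14 values were above its P1 values in every library. Pcdhgc4, needed for the survival of some neurons, fell by 1.21 in cortex and by 1.58 in the bulb, and its hippocampal difference of -1.81 did not pass.

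**Figure D3:**
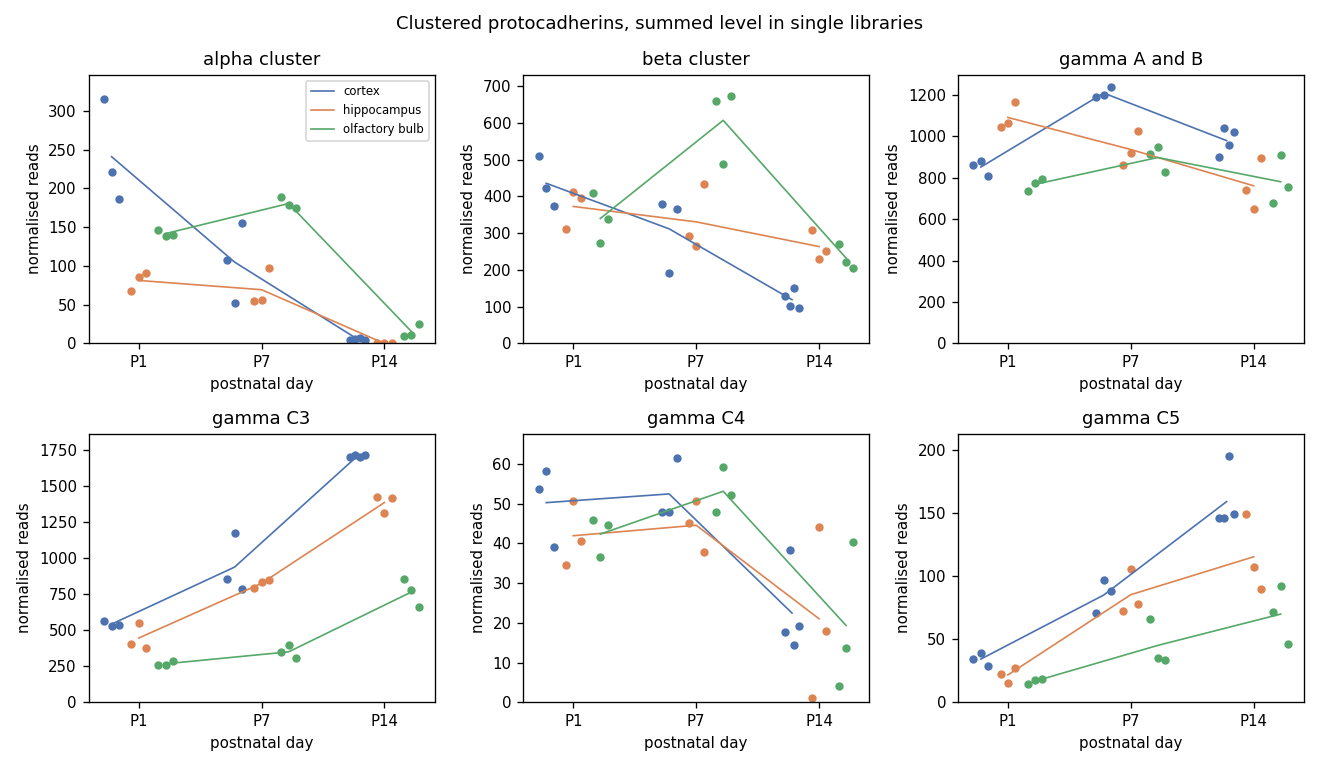
Summed normalised reads (vertical axis, from 0) of the alpha cluster, the beta cluster, gamma A and B, gamma C3, gamma C4 and gamma C5, 1 panel each, with 1 point per library and lines joining the means of P1, P7 and P14 in each region. Alpha sums end at 0 in the 3 hippocampal P14 libraries, while gamma C3 and gamma C5 are higher at P14 than at P1 in every library.

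Each week was also tested on its own. From P1 to P7, 19 members rose and 7 fell in cortex, 12 rose and 7 fell in the hippocampus, and 10 rose and 1 fell in the bulb, against 15.6% higher and 18.1% lower of all genes in cortex (33.7% in all), 11.2% and 6.92% in the hippocampus (18.1%) and 7.59% and 2.98% in the bulb (10.6%). From P7 to P14 more members fell than rose, with 6 higher and 31 lower, 6 and 15, and 9 and 25, against 18.6% and 31.3% of all genes in cortex (49.8%), 12.5% and 17.7% in the hippocampus (30.1%) and 20.4% and 26.6% in the bulb (47%). The cortex background depends on the scaling. Under TMM, 2165 genes rose and 1668 fell from P1 to P7, in place of 1850 and 2135, and 3034 rose and 2718 fell from P7 to P14, in place of 2197 and 3696. Cortex members then split into 21 higher and 6 lower in the first week and 7 and 28 in the second. Both comparisons use the P7 libraries, so their counts are not independent. The olfactory bulb counts from P7 to P14 became 11 higher and 19 lower with edgeR or quantile normalization. Over all genes 2767 rose and 2587 fell with edgeR and 2762 and 2910 with quantile normalization, in place of 2343 and 3053. The olfactory bulb count from P1 to P7 was 3 to 10 when single libraries were left out, with 3 without P7 replicate 1, and it was 28 when only these ages were fitted. These counts moved with the background. Over all genes 598 of 11455 passed without P7 replicate 1 and 3514 of 11326 with only these ages, in place of 1214 of 11490.

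Genes that work with cadherins were counted from lists of partners, for P14 against P1. The shares of all genes to set beside these counts are 24%, 21% and 24.8% higher in cortex, hippocampus and olfactory bulb. Those lower are 40.3%, 28.5% and 31.4%. Of 9 tested catenins and catenin relatives, 3 rose and 5 fell in cortex, 3 rose and 2 fell in the hippocampus, and 3 rose and 1 fell in the bulb. Ctnnd2, delta-catenin, was higher by 1.01, 2.55 and 1.52 on the log2 scale in cortex, hippocampus and olfactory bulb, and Ctnna2, the neuronal alpha-catenin, fell by 1.02, 1.003 and 1.88. Ctnna1, the alpha-catenin of most other cells, was higher by 0.53, 1.16 and 1.93. The lowest differences among the tested catenins and relatives were -2.02, -1.63 and -1.88. Of 9 WAVE complex genes 5 rose in each region, and 3, 1 and 1 fell. Wasf3 rose by 2.28, 2.87 and 2.14 and Cyfip1 by 1.51, 1.71 and 2.52, while Cyfip2, the Cyfip of neurons, fell by 1.48, 2.14 and 1.98. Of the planar polarity genes outside the superfamily, 10 were tested in each region, with 2 rising and 5 falling, 3 and 1, and 4 and 1, and Dvl2 fell in all regions by 1.90, 2.82 and 2.42. The most positive differences in that list were 2.32, 2.63 and 3.47. Regulators of the clusters mostly fell or did not pass: of 10, 11 and 11 tested, 0, 2 and 2 rose and 8, 4 and 6 fell, and Ctcf, which loops cluster promoters to their enhancers, fell by 0.88, 1.16 and 1.03. Among the calsyntenins, cadherin-related proteins, Clstn2 fell by 4.10, 3.14 and 2.92. Clstn3 fell by 3.73 in cortex, had 0 reads in all 3 hippocampal P14 libraries, at least 3.85-fold lower against a floor of 3 reads per library, and fell in the bulb to at most 1 read in a P14 library. Clstn1 rose by 0.47 in the hippocampus and by 0.47 in the bulb, and its cortex difference of 0.02 did not pass.

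Whether the age difference itself differed between regions was tested with edgeR in 1 model over the 28 developmental libraries, chosen after the data had been seen. Of 78 members, 19 differed between hippocampus and cortex, 23 between olfactory bulb and cortex and 22 between olfactory bulb and hippocampus, against 13.4%, 24.7% and 18.3% of 12720 genes, and limma on the same values called 17, 20 and 19. Cdh13 differed in all 3 pairs: its log2 age difference was larger by 2.40 (adjusted p = 5.6e-05) in the hippocampus and by 4.07 (adjusted p = 4.3e-08) in the bulb than in cortex, and by 1.67 (adjusted p = 0.00982) in the bulb than in the hippocampus. Pcdh11x was above cortex by 2.08 (adjusted p = 2.4e-04) in the hippocampus and by 2.03 (adjusted p = 9.4e-05) in the bulb, and Celsr2 was below cortex, with differences of -1.47 (adjusted p = 8.1e-05) and -1.27 (adjusted p = 2.3e-04). Between the bulb and the hippocampus the difference of Pcdh11x was -0.05 (adjusted p = 0.948) and that of Celsr2 0.20 (adjusted p = 0.622), which did not pass.

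Other members differed between the bulb and both other regions. There the age difference of Pcdh19 exceeded that of cortex by 1.96 (adjusted p = 5.9e-04) and that of hippocampus by 2.28 (adjusted p = 3.4e-04). Fat4 exceeded them by 1.81 (adjusted p = 2.8e-06) and 1.93 (adjusted p = 5.0e-06), and Pcdh18 by 1.86 (adjusted p = 0.0117) and 3.20 (adjusted p = 3.6e-04). Fat4 and Pcdh18 are members whose fall in cortex and hippocampus passed and whose olfactory bulb difference did not. Hippocampus exceeded cortex in Pcdh9 by 1.48 (adjusted p = 4.6e-05) and in Pcdh10 by 0.95 (adjusted p = 0.00152), and lay below it in Celsr1, with a difference of -2.14 (adjusted p = 7.8e-04). Members whose region differences did not pass included Pcdhgc3, at -0.28 (adjusted p = 0.384) for hippocampus minus cortex and -0.45 (adjusted p = 0.112) for olfactory bulb minus cortex, and Cdh20, at -0.24 (adjusted p = 0.708) and -0.33 (adjusted p = 0.565).

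At P28 the comparison asks what the knockout of Gabbr1 did to these genes. The targeted gene was checked first. In cortex Gabbr1 measured 1746, 1930.1, 1159 and 927 in controls and 89.8, 96.5, 134 and 211 in cKO libraries, a log2 difference of -3.45 (95% interval -4.07 to -2.83) that passed (adjusted p = 4.4e-05). The cortex libraries of the second deposit round, which carry the tamoxifen label, held the lower control values (1159 and 927) and the highest cKO value (211). Label and round cannot be told apart, and their part was not tested. In the hippocampus it measured 779.8 and 824 against 167, 379.9, 152 and 256, and in the bulb 318, 184 and 189 against 63.6, 99.5 and 78.2. Every cKO library lay below every control library of its region, although the differences of -1.84 and -1.48 in the hippocampus and olfactory bulb did not pass adjustment over all genes. With limma, Gabbr1 was the only gene of 10188 to pass in cortex (0.00982%), and in the hippocampus and olfactory bulb the share was 0%.

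No member passed at P28, with limma, edgeR or DESeq2: 0 of 52 in cortex, 0 of 60 in the hippocampus and 0 of 67 in the bulb. At an unadjusted p under 0.05 limma counted 1, 7 and 4 members, edgeR 1, 9 and 5, and DESeq2 1, 10 and 6, against 2.17%, 2.54% and 3.02% of all genes with limma, 2.22%, 2.67% and 4.89% with edgeR and 2.42%, 4.28% and 5.4% with DESeq2. At the adjusted threshold DESeq2 called 1 gene in the hippocampus and 22 in the bulb, none of them a member. With the tamoxifen label, here also the deposit round, as a cortex covariate, 647 genes had an unadjusted limma p under 0.05, in place of 221. Again no member passed. The median member differed by 0.05, 0.48 and 0.12 on the log2 scale, where the median gene differed by 0.00, -0.04 and 0.02. Pcdhgc3 measured 920.3, 1231, 888 and 679 in cortex controls and 966, 884, 939.8 and 578 in cKO libraries, a difference of -0.14 (95% interval -0.61 to 0.33). Hippocampal libraries gave 604 and 637 against 1014, 898, 721 and 619, a difference of 0.36 (95% interval -0.27 to 1.00), and bulb libraries gave 731, 703 and 704 against 762, 792 and 793, a difference of 0.13 (95% interval -0.30 to 0.57). Genotypes overlapped in cortex and hippocampus, and in the bulb all 3 cKO libraries lay slightly above all 3 controls.

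Cdh2, Pcdh10, Cdh20 and Fat1 also did not pass. In cortex Cdh2 measured 1058, 1290.2, 1172 and 1339 in controls and 1388, 1152, 1489 and 1178 in cKO libraries (log2 difference 0.10, 95% interval -0.27 to 0.46), and Pcdh10 measured 1806, 1802, 1607 and 1424 against 1961, 1475, 1749 and 1384 (log2 difference -0.02, 95% interval -0.40 to 0.36). In the hippocampus Cdh2 measured 691 and 832 against 1159, 2684, 1054 and 1104 (log2 difference 0.86, 95% interval -0.03 to 1.75), and Cdh20 181 and 185 against 328, 839, 269.9 and 305 (log2 difference 1.08, 95% interval 0.08 to 2.08). Both hippocampal genes were highest in cKO replicate 2, which held little Rn45s, and in both the other cKO libraries also lay above the controls. Sums over 7 ependymal and choroid plexus markers in the hippocampus were 67731 to 139034 in controls and 11252 to 126886 in cKO libraries, and the astrocyte sums were 167650.0 to 187097 and 132789 to 408317. Their part in the hippocampal values was not tested. In the bulb Pcdh10 measured 1937, 4204 and 1962 against 2145, 1910.2 and 2091 (log2 difference -0.30, 95% interval -0.95 to 0.35), with the high control being replicate 2, and Fat1 measured 2569.5, 2615 and 2669 against 2967, 2320.3 and 2438 (log2 difference -0.03, 95% interval -0.47 to 0.40).

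**Figure D4:**
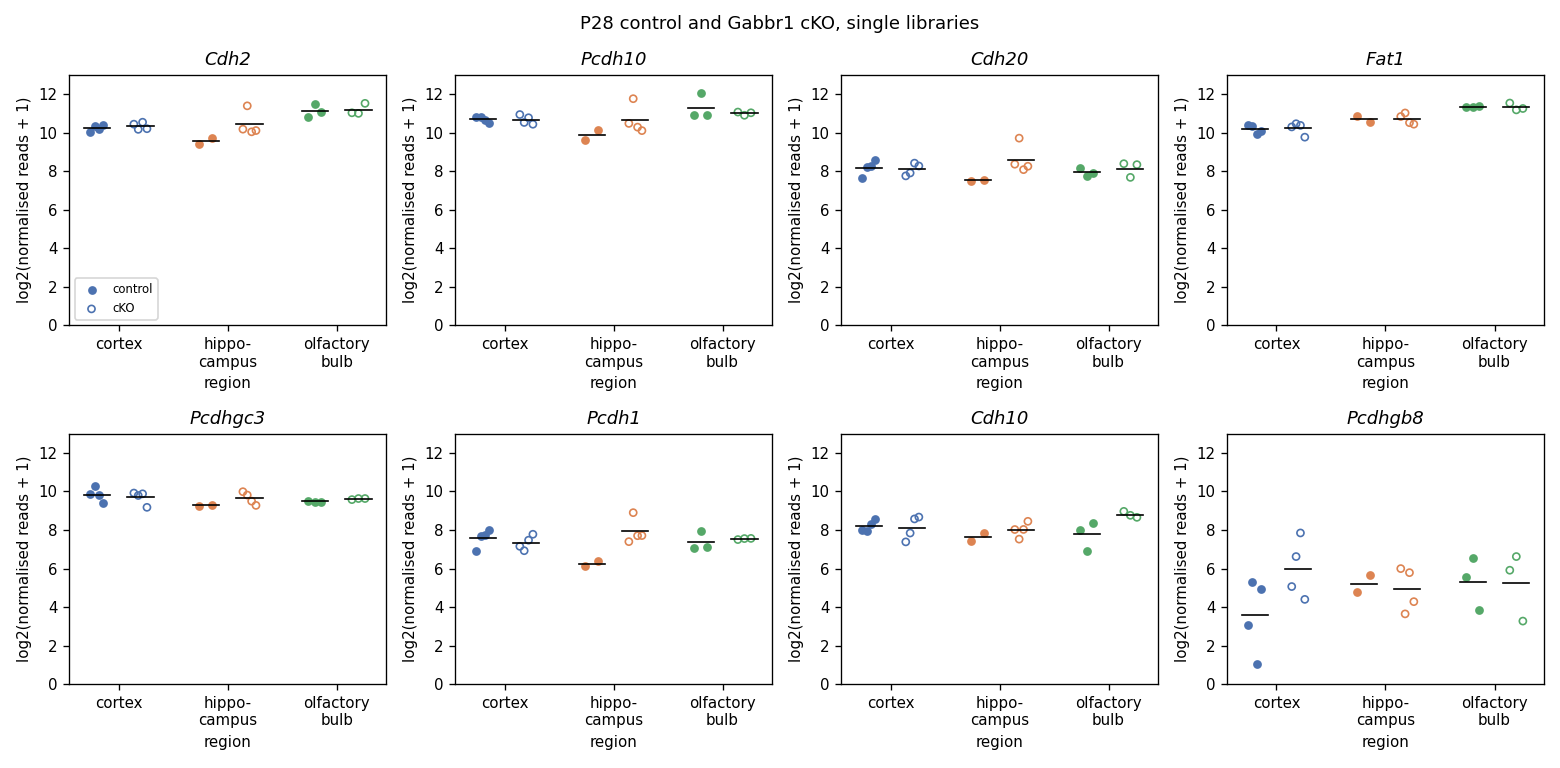
Levels at P28 as log2(normalised reads + 1) on the vertical axis for Cdh2, Pcdh10, Cdh20, Fat1, Pcdhgc3, Pcdh1, Cdh10 and Pcdhgb8, by region, with 1 point per Gabbr1 control or Gabbr1 cKO library. None of these differences passed, and hippocampal cKO replicate 2 is the highest hippocampal point for Cdh2, Pcdh10, Cdh20 and Pcdh1.

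The 3 members with the smallest unadjusted p in each region are given as values. In cortex they were Pcdhgb8, at 7.40, 38.5, 1.10 and 29.7 in controls and 32.5, 97.6, 229 and 20.1 in cKO libraries, Pcdhgb1, at 130.0, 96.9, 87.7 and 71.2 against 47.1, 50.4, 73.5 and 75.8, and Pcdhb13, at 35.9, 11.7, 13.2 and 18.7 against 13.5, 0, 8.79 and 4.80. Their log2 differences were 2.39 (95% interval 0.53 to 4.25), -0.63 (95% interval -1.27 to 0.00) and -1.83 (95% interval -3.76 to 0.10). Pcdhgb8 and Pcdhgb1 share exons with other gamma genes, and control and cKO values overlapped in each. In Pcdhgb1 the overlap came from control replicate 4 (71.2), a library of the second deposit round, which carries the tamoxifen label.

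In the hippocampus they were Pcdh1, at 68.0 and 83.6 in controls and 168, 477, 208 and 209 in cKO libraries, Pcdhga7, at 15.6 and 32.0 against 55.2, 70.8, 101 and 43.1, and Pcdh9, at 341 and 609 against 956, 981, 565 and 844. All 4 cKO libraries lay above both controls for Pcdh1 and Pcdhga7. The Pcdh1 difference was 1.67 (95% interval 0.69 to 2.66), with an unadjusted p of 0.00376 and an adjusted p of 0.936 by limma, and without cKO replicate 2 it was 1.35 (adjusted p = 0.563). The Pcdh9 difference of 0.84 came to 0.43 without control replicate 1.

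In the bulb they were Cdh10, at 259, 121 and 329 in controls and 499, 433 and 403 in cKO libraries, Pcdhgb4, at 13.8, 17.0 and 20.8 against 36.1, 88.6 and 33.3, and Cdh8, at 6.89, 153 and 25.5 against 3.44, 3.98 and 7.97. The Cdh10 difference of 1.02 came to 0.60 without control replicate 2, which held little Rn45s. Cdh8 passed the filter only through that control library, which also had the largest neuronal sum of its group, whose sums spanned 1441 to 4342. Neither these genes nor any partner gene passed at P28.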

How the data were processed

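Bulk RNA-seq libraries were prepared by the submitters from 500 pg to 1 ng of total RNA with the Trio RNA-seq kit, per the labels' protocols. The tools listed in the submitters' processing notes are STAR 2.5.0a, DESeq2 1.20.0, FastQC and MultiQC, with genome build mm10; their roles, the counting program, strand and annotation are not given in the sources used here. The deposited values are a normalised signal: whole read counts divided by 1 factor per library, 1 table per region for P1 to P14 and 1 for P28. Dividing by the smallest step gave whole reads within 0.01 read for 100% of values; in 1 P28 library, cKO replicate 2 of the olfactory bulb, a read is worth almost 1 and this says little. Tables were scaled separately, so tests stayed within a table, except for the region differences, which used recovered reads.

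Log2(value + 1) was fitted with limma 3.58.1 in R 4.3.3 with a mean-variance trend, over genes with a table mean of at least 10, and the 3 ages of a region shared 1 spread. Groups follow the labels. Members with a value for each library were the 6 largest passing rises and falls per region with a table mean of at least 30, members passing in all 3 regions, Cdh2, Cdh10, Cdh20 and Pcdhgc3, and at P28 the 3 smallest p per region. The members and lists were chosen with earlier results of these data known. Alternatives were pseudocounts 0.1 and 8, no filter, a mean of at least 50, TMM scaling, quantile normalization, edgeR 4.0.16 and DESeq2 1.42.0 on recovered reads, only the ages compared, deposit round as a covariate at P28 in cortex, cortex P14 without libraries with Ddx3y reads, and each library left out. Thinning reads and the region model were added after seeing the data. Scripts were tested on simulated data. Promoter windows came from RefSeq (GRCm38.p6) and exon lengths from GENCODE M21 (GRCm38). Intervals at 95% come from the limma fit.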

Additional observations from a re-analysis of the deposited data

Results flagged for a closer look

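In groups of 4 libraries, a library was singled out when its distance to the nearest other library took up most of the group's range. Each named member with a table mean of at least 10 was examined in each such group, 118 cases of a member in a group, and 13 were flagged. Chance gives about 1 in 20 for a single case, but members share libraries, so the cases are not independent and the total cannot be set against that rate. Of the 13, 8 were the same library, hippocampal P28 cKO replicate 2, which was the high one for Cdh2 (2684), Cdh20 (839), Pcdh1 (477), Pcdh10 (3469.5), Pcdh18 (224), Pcdh19 (228), Pcdh7 (1453) and Pcdhgb4 (105). That library also had the lowest share of Rn45s reads of its region (0.594%) and no Ddx3y reads, and whether these go with the high values was not tested. The others were spread over libraries: Celsr1 in hippocampal P28 cKO replicate 1 (169), Cdh19 in cortex P14 replicate 1 (134), Pcdhgc5 in cortex P14 replicate 3 (195), Celsr2 in cortex P28 control replicate 2 (397) and Pcdh18 in cortex P28 control replicate 4 (41.5).

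Members whose age difference passed with opposite signs in 2 regions, and whose region difference itself passed in the joint edgeR model, were Cdh13 (2.40 for hippocampus minus cortex and 4.07 for olfactory bulb minus cortex, log2), Pcdh11x (2.08 and 2.03), Celsr2 (-1.47 and -1.27) and Pcdhga7 (-2.59 for hippocampus minus cortex). Pcdh19 differed by 1.96 for olfactory bulb minus cortex and by 2.28 for olfactory bulb minus hippocampus. Between olfactory bulb and hippocampus, Cdh2 differed by 0.74 and Cdh5 by 4.96.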

How the results depend on the processing

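Of 75 differences between P14 and P1 that passed for the named members, 67 kept their direction and their call in every alternative that tested them. Low members went untested in some alternatives: hippocampal Cdh24 was tested in 14 and hippocampal Cdh2 in 16. The 8 that lost the call under at least 1 alternative were those of Celsr1 and Celsr2 in cortex, Cdh2 in olfactory bulb, and Cdh5, Cdh12, Fat1, Pcdh19 and Pcdhb16 in hippocampus. Over all alternatives run, the highest adjusted p was 0.0668 for Celsr1, 0.193 for Celsr2, 0.329 for Cdh2, 0.47 for Cdh5, 0.0695 for Cdh12, 0.0645 for Fat1, 0.0753 for Pcdh19 and 0.0797 for Pcdhb16, and the lowest was 0.00195 for Celsr1 and smaller for the other 7. Signs turned for Cdh10 in hippocampus (0.087 with edgeR, 0.10 with DESeq2, 0.21 without P14 replicate 3 and 0.018 with thinned reads, against -0.24 without P14 replicate 2), Cdh2 in cortex (0.15 with TMM, 0.10 with edgeR and 0.12 with DESeq2), Cdh2 in olfactory bulb (-0.13 with quantile normalization) and Cdh5 in cortex (0.10 with quantile normalization, 0.32 without P1 replicate 3 and 0.20 without P14 replicate 2, against -1.49 without P1 replicate 1), and the cause was not tested. Counts of members that passed moved by over 1.5 times with a table mean of at least 50, which tests fewer genes: 28 in cortex and 18 in olfactory bulb for P14 against P1, and 22 and 17 for P14 against P7. Over all genes 5414 of 7568 and 4583 of 7013 then passed for P14 against P1, and 4410 of 7568 and 3946 of 7013 for P14 against P7. With no filter, 34 passed in hippocampus for P14 against P7, where 4806 of 18911 genes passed. In olfactory bulb, P7 against P1 gave 19 with DESeq2 and 28 with only these ages fitted. Over all genes 2260 of 11490 and 3514 of 11326 then passed, in place of 1214 of 11490. Leaving out single libraries gave 42 to 48 for P14 against P1, 21 to 27 for P7 against P1 and 33 to 44 for P14 against P7 in cortex, 30 to 38, 12 to 13 and 14 to 26 in hippocampus, and 31 to 42, 3 to 10 and 26 to 40 in olfactory bulb. In hippocampus, P7 against P1 gave 12 without P1 replicate 2, P1 replicate 3, P7 replicate 2 or P7 replicate 3. In olfactory bulb it gave 5, 4, 3 and 4 without P1 replicate 2, P1 replicate 3, P7 replicate 1 and P7 replicate 2. At P28 all alternatives gave 0. No paired analysis was possible because the replicate numbers follow accession order and the labels tie no library of one age or genotype to one of another. Depth limits the low members most: with 1773226 reads in the smallest library, a member with few reads at P14 cannot be told from one with none.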
